A study of Homo sapiens with 16 samples.

Results

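Glycolysis, glucose and lactate transport genes of HCT116 cells, a human colon cancer line, were followed across siRNA depletion of p53, of iASPP or of both, and across the addition of nutlin. The members are 34 genes named by symbol, each found as 1 row of a deposited table of 20271 genes. They cover glucose uptake, the steps from glucose to pyruvate, the enzymes that set fructose-2,6-bisphosphate, lactate formation and export, the gate into the mitochondrion at pyruvate dehydrogenase, and the pentose phosphate branch. There were 8 groups of 2 libraries each: p53+iASPP siRNA+nutlin, p53+iASPP siRNA, iASPP siRNA+nutlin, iASPP siRNA, p53 siRNA+nutlin, p53 siRNA, CTR siRNA+nutlin and CTR siRNA. All cells were labelled as wild type for p53, carried siRNA for 3 days, and those with nutlin received it for a further 0.5 days. CTR siRNA is taken here as the control siRNA, and untransfected cells were not analysed here.

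Glycolysis splits glucose into pyruvate, and proliferating tumour cells often turn much of that pyruvate into lactate through lactate dehydrogenase and export it through monocarboxylate transporters. The pentose phosphate pathway branches off at glucose-6-phosphate and yields NADPH and ribose for nucleotides. p53 is a transcription factor that MDM2 holds low, nutlin blocks the binding of MDM2 to p53, and iASPP is an inhibitor of p53. p53 is known as a regulator of glucose use, among others through TIGAR, an enzyme that lowers fructose-2,6-bisphosphate.

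The values are FPKM, fragment counts divided by gene length and by the library's total, so that levels of different genes can be set side by side. Each library had 10068 to 10726 genes at 1 FPKM or above, and 10662 genes whose mean reached 1 FPKM entered the tests. Depth relative to the first CTR siRNA library, as the steps between low values give it, was 0.824 to 1.33 in replicate 1 libraries and 3.68 to 7.67 in replicate 2 libraries, and absolute depth is unknown. The labels do not say that replicates came from separate cultures, so p-values measure the spread between these libraries, which may be technical. In 5 groups the replicates were close, with a median absolute log2 difference of 0.0514 to 0.0668 at 100 FPKM and above. In p53+iASPP siRNA+nutlin, iASPP siRNA+nutlin and p53 siRNA+nutlin it was 0.178, 0.259 and 0.197, and the replicate 2 libraries of these 3 groups are called the diverging libraries. That is only a name, as a difference within a pair does not show which replicate departs. Leaving out the replicate 1 libraries of these groups together was not tried. The spread of a gene was estimated over all 8 groups together. For differences that involve these 3 groups the close pairs narrow the standard error, which can thus be too small. Without the diverging libraries the widest pairs no longer enter the shared estimate of spread, so calls can rise for that reason alone. CDKN1A, a target that p53 activates, stood at 83.1 and 141 FPKM in p53+iASPP siRNA+nutlin, 1656 and 776 FPKM in iASPP siRNA+nutlin, 47.4 and 107 FPKM in p53 siRNA+nutlin and 1510 and 1577 FPKM in CTR siRNA+nutlin. Without nutlin CDKN1A was at 40.3 and 37.9 FPKM after p53+iASPP siRNA and 411 and 406 FPKM after iASPP siRNA. It was then at 14.5 and 15.6 FPKM after p53 siRNA and 70.7 and 72.7 FPKM after CTR siRNA. PPP1R13L, which encodes iASPP, was at 0.279 to 2.45 FPKM in the 8 libraries with iASPP siRNA and 6.88 to 18.9 FPKM in the 8 without it. The 6 epithelial markers, keratins and junction genes, summed to 3072 to 5727 FPKM per library, against at most 1.75 FPKM for 4 fibroblast, 3.70 FPKM for 3 leukocyte and 0.319 FPKM for 3 endothelial markers.

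Levels of the members spanned from under 1 FPKM to 6108 FPKM. GAPDH, glyceraldehyde-3-phosphate dehydrogenase, was the highest at 3989.9 to 6108 FPKM over the 16 libraries. ENO1, LDHB, ALDOA, PKM, LDHA and TPI1 followed with means of 1954, 1311, 1112, 1101, 938 and 818 FPKM. The 34 members together made up 2.08 and 1.99% of summed FPKM in p53+iASPP siRNA+nutlin against 2.22 and 2.21% in p53+iASPP siRNA, and 1.67 and 1.69% in iASPP siRNA+nutlin against 1.98 and 1.99% in iASPP siRNA. The members' share was 2.03 and 1.82% in p53 siRNA+nutlin against 2.40 and 2.38% in p53 siRNA, and 1.70 and 1.71% in CTR siRNA+nutlin against 2.11 and 2.11% in CTR siRNA. In each siRNA background the members thus held a smaller share in both nutlin libraries than in both libraries without it, and the share was not tested. Cells that make fewer of these transcripts and a smaller portion of cells that make them cannot be told apart in such bulk RNA. In 15 members a named pseudogene exists, with 62 for GAPDH, 13 for PGAM1 and 6 for LDHA in GENCODE release 29. How reads shared with these copies were assigned is not given in the sources used here, and 16 members have an exon that overlaps a gene on the other strand, so those values are uncertain to that extent.

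**Figure D1:**
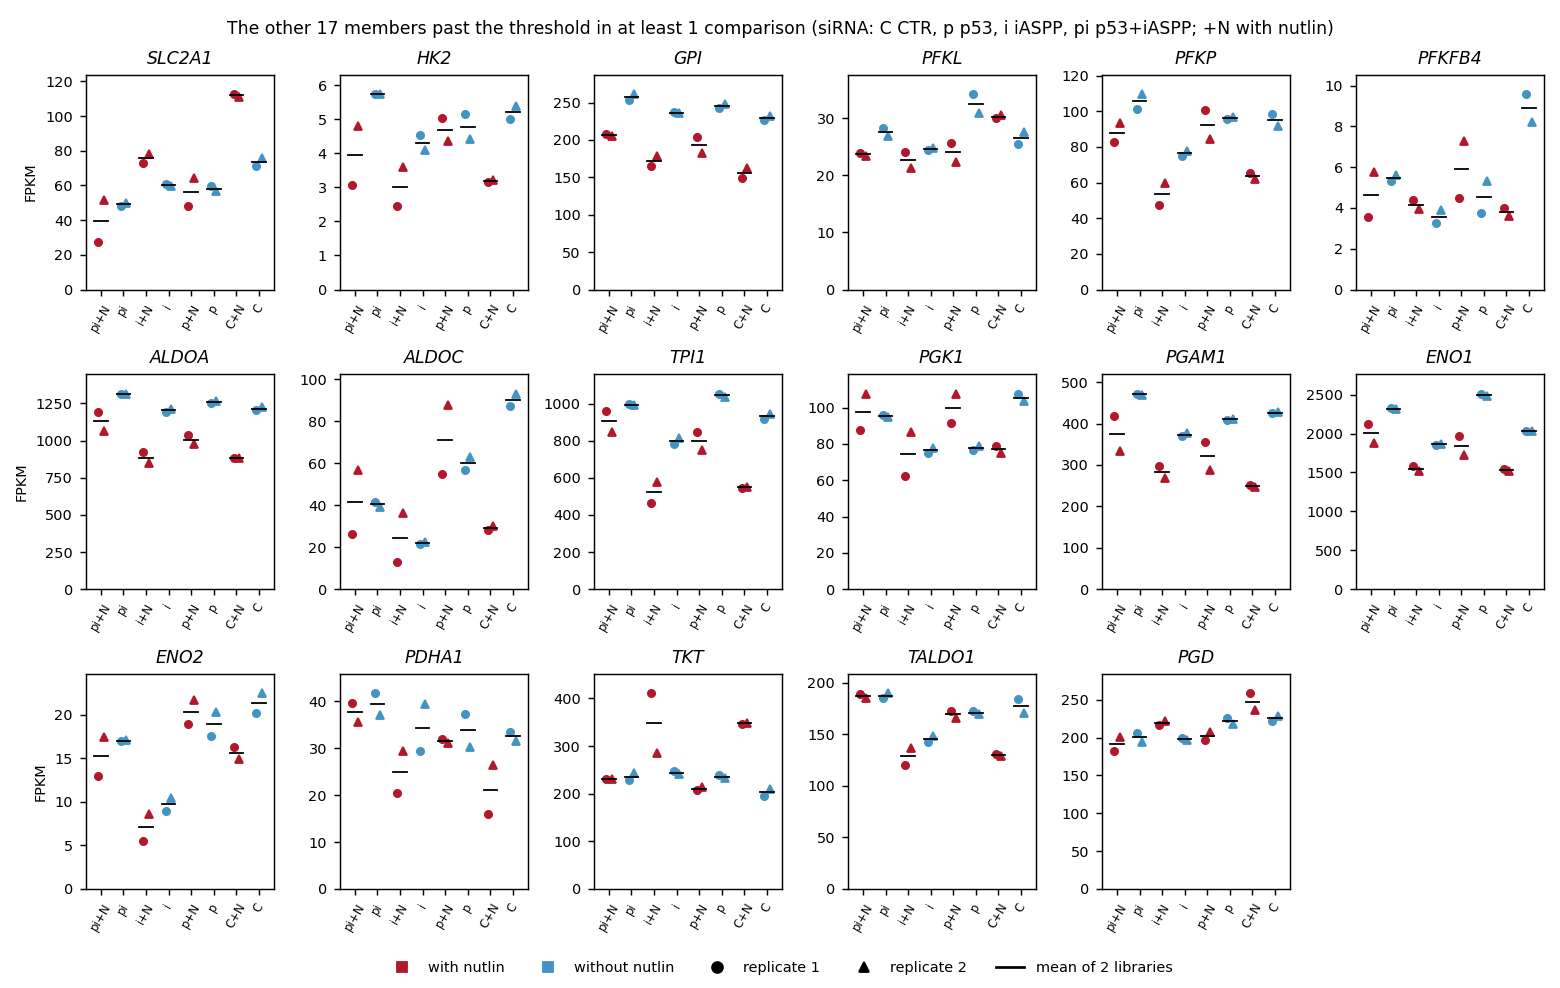
FPKM of the 17 called members other than LDHA in each library (points, linear axes from 0) and the mean of each group (short lines), with groups running from p53+iASPP siRNA+nutlin to CTR siRNA. SLC2A1 is highest in the 2 CTR siRNA+nutlin libraries, at 113 and 111 FPKM, and TKT in the 2 nutlin groups without p53 siRNA.

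Adding nutlin to CTR siRNA cells addresses how these genes behave when p53 is released from MDM2. LDHA, lactate dehydrogenase A, fell to 0.428 of its level without nutlin. ALDOC (aldolase C), PFKFB4, which makes and breaks down fructose-2,6-bisphosphate, PGAM1 (phosphoglycerate mutase) and TPI1 (triosephosphate isomerase) fell to 0.322, 0.430, 0.584 and 0.589 of theirs. TKT, the transketolase of the pentose phosphate branch, was the 1 member that rose, to 1.71 times its level. Of 31 members tested 12 fell and 1 rose, which is 41.9% called against 26.8% of all genes tested, with 21% of all genes down and 5.87% up. The members' median log2 difference was -0.41, against -0.20 for all genes tested. By limma, 5 of 8 members of upper glycolysis fell (HK2, GPI, PFKP, ALDOA, ALDOC), 4 of 7 of lower glycolysis (TPI1, PGK1, PGAM1, ENO1), 1 of 3 fructose-2,6-bisphosphate enzymes (PFKFB4), 1 of 4 lactate genes (LDHA) and 1 of 4 pentose phosphate genes (TALDO1). None of 4 pyruvate dehydrogenase genes passed, nor did SLC2A1. The median log2 difference of these 4 pyruvate dehydrogenase genes was -0.62, below that of upper glycolysis (-0.51) and of lower glycolysis (-0.42). Not passing thus does not show that they were unchanged. Between CTR siRNA+nutlin and CTR siRNA 22 members were lower without overlap, against 51.6% of all genes, and 4 were higher, against 20.4%.

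The fall of many genes in this comparison depends on how libraries are scaled. Median-of-ratios scaling moved the median of all genes in it to 0.0058, and the members' median to -0.16. Under that scaling 7 members fell (LDHA -0.98, ALDOC -1.36, PFKFB4 -0.83, PGAM1 -0.53, TPI1 -0.52, PFKP -0.32 and GPI -0.31) and 4 rose (TKT 1.02, SLC2A1 0.85, PFKL 0.42 and PGD 0.38). That is 35.5% of 31 called, against 23.7% of all genes under the same scaling, 12.3% down and 11.4% up. The count of 13 was 8 without CTR siRNA replicate 1 and 22 without the 3 diverging libraries, or 71%, against 41.1% of all genes in that fit. With each of the 5 close replicate pairs averaged and counted as 1 sample, 0 members passed in limma in this or any other comparison. The spread then came only from the 3 groups with diverging libraries, so that fit cannot show how the close groups vary.

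LDHA (ENSG00000134333, GRCh38 chromosome 11 from 18394388 to 18408425, plus strand) turns pyruvate into lactate and had the lowest p of the members in the CTR siRNA comparison. LDHA stood at 911 and 950.2 FPKM with nutlin and 1046 and 1044 FPKM without it after p53+iASPP siRNA, and at 525 and 578 FPKM with nutlin and 806 and 809.7 FPKM without it after iASPP siRNA. After p53 siRNA LDHA was at 955 and 1009 FPKM with nutlin and 1604 and 1528 FPKM without it, and after CTR siRNA at 487 and 487 FPKM with nutlin and 1139 and 1137 FPKM without it. The replicates of LDHA never overlapped those of the other nutlin state in any siRNA background. Of all genes tested, 51.6% were lower without overlap with nutlin in CTR siRNA cells. The share of all genes was not computed for the other backgrounds, here or for the members described below. Ordered by mean, LDHA ran CTR siRNA+nutlin (487 ± 0.0419 FPKM, mean ± SD, n = 2), iASPP siRNA+nutlin (552 ± 37.6), iASPP siRNA (808 ± 2.28), p53+iASPP siRNA+nutlin (931 ± 27.6), p53 siRNA+nutlin (982 ± 37.9), p53+iASPP siRNA (1045 ± 1.59), CTR siRNA (1138 ± 1.30) and p53 siRNA (1566 ± 54.1). The neighbours p53 siRNA+nutlin and p53+iASPP siRNA+nutlin lay within the sum of their SDs of each other.

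With nutlin the log2 difference of LDHA was -1.22 ± 0.069, adjusted p = 3.79e-06 in CTR siRNA cells (limma difference of log2(FPKM + 1) ± SE), -0.55 ± 0.069, adjusted p = 0.00763 after iASPP siRNA and -0.67 ± 0.069, adjusted p = 0.00701 after p53 siRNA. After p53+iASPP siRNA it was -0.17 with an interval of -0.32 to -0.016 and did not pass (adjusted p = 0.694). The fall after p53 siRNA was known from earlier results of these data. It corresponds to 0.627 of the level without nutlin, with an interval of -0.82 to -0.52 on the log2 scale, and only 24 genes, or 0.225% of all genes tested (0.141% up and 0.0844% down), passed in that comparison. ENO1 was the other member among them, at -0.44 ± 0.076, adjusted p = 0.0497. The median of the 31 members there was -0.057, against -0.024 for all genes. Without p53 siRNA replicate 1 neither call was kept, with adjusted p = 0.139 for LDHA, and the ENO1 call was also lost without any other library that had no nutlin, either CTR siRNA+nutlin library or p53 siRNA+nutlin replicate 2 (adjusted p 0.0897 to 0.471). The count of 2 became 4 without p53 siRNA+nutlin replicate 1 or either iASPP siRNA+nutlin library. CDKN1A in these p53 siRNA cells was at 47.4 and 107 FPKM with nutlin and 14.5 and 15.6 FPKM without it, and the part of remaining p53 in the LDHA difference was not tested.

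The nutlin difference of LDHA was smaller in size after p53 siRNA than after CTR siRNA, by 0.55 ± 0.097, adjusted p = 0.00685, and smaller after iASPP siRNA than after CTR siRNA, by 0.67 ± 0.097, adjusted p = 0.0145. The first became 0.32 with median-of-ratios scaling (adjusted p = 0.0781) and the second 0.48 (adjusted p = 0.055), so neither passed under that scaling. The second was also lost without any CTR siRNA, CTR siRNA+nutlin or iASPP siRNA library (adjusted p 0.0582 to 0.0863). Among cells given nutlin, LDHA was 1.91 times as high after p53+iASPP siRNA as after CTR siRNA (0.93 ± 0.069, adjusted p = 1.84e-05) and 2.02 times as high after p53 siRNA (1.01 ± 0.069, adjusted p = 1.58e-05). Without nutlin LDHA was lower after iASPP siRNA than after CTR siRNA (-0.49 ± 0.069, adjusted p = 0.00553), a call lost without CTR siRNA replicate 1 or iASPP siRNA replicate 1 (adjusted p 0.0701 to 0.0731). Its fall with nutlin after iASPP siRNA was lost without either iASPP siRNA library (adjusted p 0.0705 to 0.0876). After p53 siRNA without nutlin LDHA differed by 0.46 ± 0.069 from CTR siRNA and narrowly missed the threshold (adjusted p = 0.0557).

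LDHB, the subunit that favours turning lactate back into pyruvate, passed in none of the 12 comparisons over all 16 libraries and ranged over 889 to 1566 FPKM. It stood at 1265 and 1289 FPKM in CTR siRNA+nutlin, 1056 and 1035 FPKM in iASPP siRNA and 1559.9 and 1560.1 FPKM in CTR siRNA, and in both CTR siRNA+nutlin and iASPP siRNA it lay below CTR siRNA without overlap. Without the 3 diverging libraries, none of which is in these 3 groups, LDHB passed in 9 of 12 comparisons, among them iASPP siRNA against CTR siRNA without nutlin (-0.58, adjusted p = 7.9e-05) and nutlin in CTR siRNA cells (-0.29, adjusted p = 0.000527). With median-of-ratios scaling over all 16 libraries LDHB missed the threshold in both. It was then -0.48 after iASPP siRNA without nutlin (limma adjusted p = 0.0561) and -0.042 with nutlin in CTR siRNA cells (adjusted p = 0.859). The replicates of LDHB stood apart in the diverging groups, at 1153 and 1556 FPKM in p53+iASPP siRNA+nutlin and 889 and 1433 FPKM in iASPP siRNA+nutlin. The ratio of LDHA to LDHB was 0.790 and 0.611 in p53+iASPP siRNA+nutlin against 0.868 and 0.910 in p53+iASPP siRNA, and 0.590 and 0.403 in iASPP siRNA+nutlin against 0.764 and 0.782 in iASPP siRNA. That ratio was 0.654 and 0.644 in p53 siRNA+nutlin against 1.12 and 1.12 in p53 siRNA, and 0.385 and 0.378 in CTR siRNA+nutlin against 0.730 and 0.729 in CTR siRNA. The ratio was lower with nutlin in both libraries of each background and was not tested. A ratio of these 2 genes within a library does not change with the scaling of libraries.

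**Figure D2:**
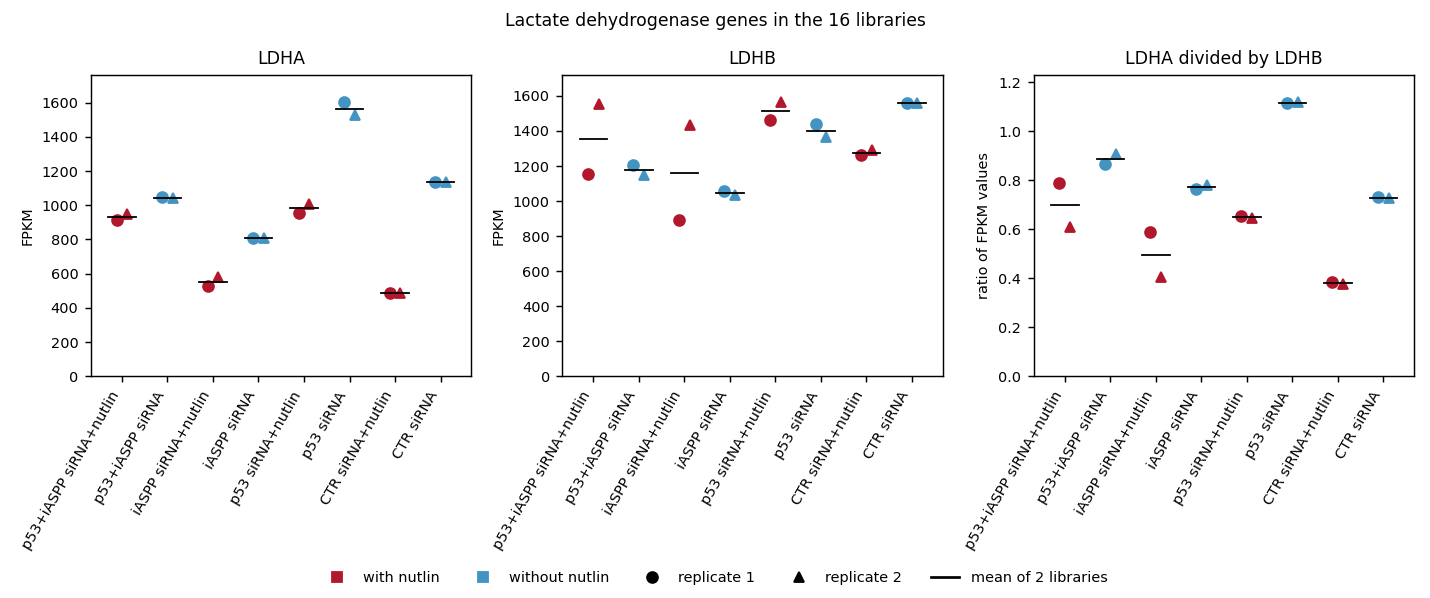
FPKM of LDHA and LDHB and the LDHA to LDHB ratio in each library (points) with group means (short lines), from p53+iASPP siRNA+nutlin to CTR siRNA. LDHA is lowest in CTR siRNA+nutlin, at 487 and 487 FPKM, and highest in p53 siRNA, at 1604 and 1528 FPKM.

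The promoters of LDHA, ALDOC and PFKFB4, whose transcripts fell most with nutlin in CTR siRNA cells, and of TKT, whose transcript rose, are shown for ACGTG and GCGTG, the core letters of the hypoxia-response element that many glycolytic promoters carry. They are the 250 bases before the RefSeq start on GRCh38.p14, written in the direction of transcription, and capitals mark ACGTG or GCGTG on either strand. The regions are chr11:18394313-18394562 on the plus strand for LDHA, and on the minus strand chr17:28576896-28577145 for ALDOC, chr3:48556804-48557053 for PFKFB4 and chr3:53256023-53256272 for TKT.
LDHA: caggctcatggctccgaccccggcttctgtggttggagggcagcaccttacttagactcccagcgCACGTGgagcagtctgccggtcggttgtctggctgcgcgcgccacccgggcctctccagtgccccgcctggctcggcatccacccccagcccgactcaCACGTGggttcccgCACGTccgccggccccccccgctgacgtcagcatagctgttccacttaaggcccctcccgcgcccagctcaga
ALDOC: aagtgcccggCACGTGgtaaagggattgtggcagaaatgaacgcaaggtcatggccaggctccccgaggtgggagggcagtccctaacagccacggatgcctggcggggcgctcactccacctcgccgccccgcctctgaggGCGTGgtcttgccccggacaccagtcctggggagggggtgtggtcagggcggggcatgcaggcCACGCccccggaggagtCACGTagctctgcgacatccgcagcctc
PFKFB4: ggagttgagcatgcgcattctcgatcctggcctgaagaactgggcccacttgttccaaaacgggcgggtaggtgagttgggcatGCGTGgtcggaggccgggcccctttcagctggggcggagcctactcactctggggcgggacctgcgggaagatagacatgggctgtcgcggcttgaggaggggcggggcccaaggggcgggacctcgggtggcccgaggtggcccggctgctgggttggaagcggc
TKT: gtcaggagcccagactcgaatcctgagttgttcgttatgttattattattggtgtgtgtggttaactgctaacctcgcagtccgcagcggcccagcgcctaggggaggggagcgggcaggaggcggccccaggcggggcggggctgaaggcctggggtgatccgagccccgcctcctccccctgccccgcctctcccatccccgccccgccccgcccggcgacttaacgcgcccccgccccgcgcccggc
In these windows the capitals form 3 separate stretches in LDHA, 4 in ALDOC and 1 in PFKFB4, and TKT has none. RefSeq lists 2 promoters for LDHA, and the 1 shown is nearest to the gene's start. The other window, whose first base is chr11:18396101, held no ACGTG and 1 GCGTG in the 250 bases before its start. Over 59 RefSeq promoters of members, ACGTG on either strand was present in 35.6%, against 18.5% of 35116 promoters of the same length. Of 20 promoters of members that fell with nutlin in CTR siRNA cells, 55% held ACGTG, and of 35 promoters of members tested and not called, 25.7%. For GCGTG the members' share was 33.9%, against 32.2% of all promoters, and for CACGTG, which reads the same on both strands and contains ACGTG, 13.6% against 6.34%. Several promoters belong to 1 gene, and many of those not called belong to HK1 and PFKM, nearly all without ACGTG. The shares by call thus count promoters and do not compare genes. A match is not a binding site, and these shares are descriptions with no test.

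SLC2A1, the glucose transporter GLUT1, is the entry point of glucose. SLC2A1 stood at 27.3 and 51.5 FPKM with nutlin and 48.2 and 50.1 FPKM without it after p53+iASPP siRNA, and at 72.97 and 78.3 FPKM with nutlin and 60.6 and 59.8 FPKM without it after iASPP siRNA. After p53 siRNA SLC2A1 was at 48.2 and 64.5 FPKM with nutlin and 59.6 and 56.6 FPKM without it, and after CTR siRNA at 113 and 111 FPKM with nutlin and 71.3 and 75.6 FPKM without it. Both CTR siRNA+nutlin libraries lay above all other libraries. With nutlin present SLC2A1 was lower after p53+iASPP siRNA (-1.55 ± 0.23, adjusted p = 0.000626) and after p53 siRNA (-0.99 ± 0.23, adjusted p = 0.00971) than after CTR siRNA. The call after p53 siRNA was lost without CTR siRNA+nutlin replicate 1 or p53 siRNA+nutlin replicate 1 (adjusted p 0.0597 to 0.0859), and the nutlin difference in CTR siRNA cells missed the threshold at 0.60 ± 0.23 (adjusted p = 0.0712). HK2, a hexokinase that traps glucose in the cell as glucose-6-phosphate, was far lower in level. HK2 stood at 3.08 and 4.82 FPKM with nutlin and 5.74 and 5.73 FPKM without it after p53+iASPP siRNA, and at 2.44 and 3.60 FPKM with nutlin and 4.53 and 4.09 FPKM without it after iASPP siRNA. After p53 siRNA HK2 was at 5.05 and 4.35 FPKM with nutlin and 5.14 and 4.41 FPKM without it, and after CTR siRNA at 3.16 and 3.20 FPKM with nutlin and 5.00 and 5.40 FPKM without it. The fall of HK2 with nutlin in CTR siRNA cells (-0.57 ± 0.19, adjusted p = 0.0425) was lost without any of the 8 libraries that had no nutlin or either CTR siRNA+nutlin library (adjusted p 0.053 to 0.163) and with scaling (-0.37, adjusted p = 0.107) or without a filter (adjusted p = 0.0717). HK1, the other hexokinase, ranged over 12.1 to 16.7 FPKM and passed in no comparison. SLC2A3, the transporter GLUT3, had a mean of 0.821 FPKM and was not tested.

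GPI, which turns glucose-6-phosphate into fructose-6-phosphate, fell with nutlin in 2 backgrounds. GPI stood at 208 and 205 FPKM with nutlin and 253 and 261 FPKM without it after p53+iASPP siRNA, and at 166 and 179 FPKM with nutlin and 237 and 236 FPKM without it after iASPP siRNA. After p53 siRNA GPI was at 203 and 182 FPKM with nutlin and 243 and 248 FPKM without it, and after CTR siRNA at 149 and 162 FPKM with nutlin and 227 and 232 FPKM without it. In every background both nutlin libraries were below both without nutlin. GPI fell in CTR siRNA cells (-0.56 ± 0.085, adjusted p = 0.000751) and after iASPP siRNA (-0.46 ± 0.085, adjusted p = 0.016), and with nutlin present it was higher after p53+iASPP siRNA (0.41) and after p53 siRNA (0.30) than after CTR siRNA. The call after iASPP siRNA was lost without either iASPP siRNA library or iASPP siRNA+nutlin replicate 1 (adjusted p 0.0661 to 0.13). The p53 siRNA call was lost without either CTR siRNA+nutlin library or p53 siRNA+nutlin replicate 1 (adjusted p 0.0541 to 0.19), the p53+iASPP siRNA call without CTR siRNA+nutlin replicate 1 (adjusted p = 0.0661), and both with scaling (0.075 and 0.20).

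Phosphofructokinase, the committed step of glycolysis, is made of PFKP, PFKM and PFKL subunits. PFKP stood at 82.8 and 93.2 FPKM with nutlin and 102 and 109.7 FPKM without it after p53+iASPP siRNA, and at 47.4 and 59.7 FPKM with nutlin and 75.1 and 77.5 FPKM without it after iASPP siRNA. After p53 siRNA PFKP was at 101 and 84.5 FPKM with nutlin and 95.95 and 96.9 FPKM without it, and after CTR siRNA at 65.4 and 62.2 FPKM with nutlin and 98.6 and 91.6 FPKM without it. PFKP was lowest in the 2 nutlin groups without p53 siRNA. It fell with nutlin in CTR siRNA cells (-0.57 ± 0.13, adjusted p = 0.00743) and after iASPP siRNA (-0.51 ± 0.13, adjusted p = 0.0428), and with nutlin present it was higher after p53+iASPP siRNA (0.46) and p53 siRNA (0.52). Leaving out CTR siRNA replicate 1 or CTR siRNA+nutlin replicate 2 ended the call in CTR siRNA cells (adjusted p 0.0532 to 0.0636), and leaving out any of 11 libraries, namely the 8 without nutlin, both of CTR siRNA+nutlin and iASPP siRNA+nutlin replicate 1, ended that after iASPP siRNA (adjusted p 0.0662 to 0.208). The iASPP siRNA call was also lost with the replicate block (adjusted p = 0.0568) and without a filter (adjusted p = 0.0596). The PFKP call after p53 siRNA was lost without either CTR siRNA+nutlin library or p53 siRNA+nutlin replicate 1 (adjusted p 0.0592 to 0.105), that after p53+iASPP siRNA without either CTR siRNA+nutlin library or p53+iASPP siRNA+nutlin replicate 2 (adjusted p 0.0847 to 0.12), and both with scaling (0.30 and 0.26).

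PFKL stood at 23.8 and 23.4 FPKM with nutlin and 28.2 and 26.9 FPKM without it after p53+iASPP siRNA, and at 24.1 and 21.3 FPKM with nutlin and 24.4 and 24.8 FPKM without it after iASPP siRNA. After p53 siRNA PFKL was at 25.6 and 22.4 FPKM with nutlin and 34.2 and 30.8 FPKM without it, and after CTR siRNA at 29.97 and 30.6 FPKM with nutlin and 25.5 and 27.6 FPKM without it. PFKL was higher with nutlin in CTR siRNA cells and lower with it after p53 siRNA, without overlap, and neither difference passed on its own. The nutlin difference of PFKL after p53 siRNA minus that after CTR siRNA was -0.61 ± 0.16, adjusted p = 0.0334, and leaving out any of the 8 libraries without nutlin, either CTR siRNA+nutlin library or p53 siRNA+nutlin replicate 2 ended that call (adjusted p 0.0517 to 0.129). PFKL was also lower after p53+iASPP siRNA than after CTR siRNA with nutlin present (-0.34 ± 0.11, adjusted p = 0.0434), a call ended without any of the 8 libraries that had no nutlin or of the 4 compared (adjusted p 0.0539 to 0.164). PFKM ranged over 42.3 to 71.5 FPKM and passed in no comparison. PFKP made up a mean of 52.7% of summed PFKL, PFKM and PFKP in p53+iASPP siRNA+nutlin against 56.3% in p53+iASPP siRNA, 36.9% in iASPP siRNA+nutlin against 47.7% in iASPP siRNA, 52.9% in p53 siRNA+nutlin against 54.5% in p53 siRNA, and 40.1% in CTR siRNA+nutlin against 49.5% in CTR siRNA.

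PFKFB4 is an enzyme of fructose-2,6-bisphosphate, which activates phosphofructokinase. PFKFB4 stood at 3.53 and 5.74 FPKM with nutlin and 5.30 and 5.63 FPKM without it after p53+iASPP siRNA, and at 4.38 and 3.94 FPKM with nutlin and 3.28 and 3.88 FPKM without it after iASPP siRNA. After p53 siRNA PFKFB4 was at 4.50 and 7.29 FPKM with nutlin and 3.75 and 5.31 FPKM without it, and after CTR siRNA at 4.02 and 3.62 FPKM with nutlin and 9.59 and 8.20 FPKM without it. The 2 CTR siRNA libraries lay above the other 14. PFKFB4 fell with nutlin in CTR siRNA cells (-1.03 ± 0.23, adjusted p = 0.00713) and was lower after iASPP siRNA than after CTR siRNA without nutlin (-1.11 ± 0.23, adjusted p = 0.0191). Its nutlin difference after p53 siRNA minus that after CTR siRNA was 1.34 ± 0.33, adjusted p = 0.0268. These calls were lost without CTR siRNA replicate 1 in the first case (adjusted p = 0.0604) and without any of the 4 libraries compared in the second (adjusted p 0.0654 to 0.153). The difference of differences was lost without p53 siRNA replicate 1, p53 siRNA+nutlin replicate 2 or any CTR siRNA or CTR siRNA+nutlin library (adjusted p 0.0559 to 0.107), and without a filter (adjusted p = 0.0554). PFKFB3 and PFKFB2, of the same enzyme family, ranged over 6.56 to 17.3 and 0.780 to 2.64 FPKM and passed in no comparison.

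Aldolase splits fructose-1,6-bisphosphate, and ALDOA is the form at high level here. ALDOA stood at 1195 and 1064 FPKM with nutlin and 1314 and 1314 FPKM without it after p53+iASPP siRNA, and at 922 and 847 FPKM with nutlin and 1193 and 1214 FPKM without it after iASPP siRNA. After p53 siRNA ALDOA was at 1036 and 977 FPKM with nutlin and 1255 and 1268 FPKM without it, and after CTR siRNA at 885 and 880.0 FPKM with nutlin and 1203 and 1222 FPKM without it. In each background ALDOA was below its level without nutlin in both nutlin libraries. ALDOA fell in CTR siRNA cells (-0.46 ± 0.073, adjusted p = 0.000925) and after iASPP siRNA (-0.45 ± 0.073, adjusted p = 0.0115), and with nutlin present was higher after p53+iASPP siRNA than after CTR siRNA (0.35 ± 0.073, adjusted p = 0.00502). The call after iASPP siRNA was lost without either iASPP siRNA library (adjusted p 0.0849 to 0.104), and with scaling all 3 were lost (-0.21, -0.39 and 0.15).

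ALDOC stood at 26.3 and 57.02 FPKM with nutlin and 41.8 and 39.2 FPKM without it after p53+iASPP siRNA, and at 12.8 and 36.3 FPKM with nutlin and 21.6 and 22.6 FPKM without it after iASPP siRNA. After p53 siRNA ALDOC was at 54.8 and 87.7 FPKM with nutlin and 56.9 and 63.2 FPKM without it, and after CTR siRNA at 28.05 and 30.01 FPKM with nutlin and 87.1 and 93.2 FPKM without it. ALDOC, the brain-type aldolase, thus had its highest mean in CTR siRNA, and among nutlin groups its replicates stood far apart in the 3 with diverging libraries. It fell with nutlin in CTR siRNA cells (-1.60 ± 0.42, adjusted p = 0.0159) and was lower after iASPP siRNA than after CTR siRNA without nutlin (-1.98 ± 0.42, adjusted p = 0.0205). Each call was lost without any of the 4 libraries compared (adjusted p 0.0617 to 0.0839 in the first and adjusted p 0.0929 to 0.135 in the second).

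TPI1, which interconverts the triose phosphates, passed in 4 comparisons. TPI1 stood at 961 and 848 FPKM with nutlin and 996 and 992 FPKM without it after p53+iASPP siRNA, and at 465 and 580.0 FPKM with nutlin and 785 and 817 FPKM without it after iASPP siRNA. After p53 siRNA TPI1 was at 848 and 749 FPKM with nutlin and 1053 and 1035 FPKM without it, and after CTR siRNA at 546 and 551 FPKM with nutlin and 917 and 944 FPKM without it. TPI1 fell with nutlin in CTR siRNA cells (-0.76 ± 0.10, adjusted p = 0.000375) and after iASPP siRNA (-0.62 ± 0.10, adjusted p = 0.0117). With nutlin present it was higher after p53+iASPP siRNA (0.72 ± 0.10, adjusted p = 0.00063) and after p53 siRNA (0.54 ± 0.10, adjusted p = 0.00417) than after CTR siRNA. Of these, the call after iASPP siRNA was lost without either iASPP siRNA library (adjusted p 0.0849 to 0.104) and that after p53 siRNA with scaling (0.31, adjusted p = 0.0634).

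PGK1, phosphoglycerate kinase, makes ATP in the payoff phase of glycolysis. PGK1 stood at 87.5 and 108 FPKM with nutlin and 95.9 and 94.7 FPKM without it after p53+iASPP siRNA, and at 62.4 and 86.8 FPKM with nutlin and 74.9 and 77.8 FPKM without it after iASPP siRNA. After p53 siRNA PGK1 was at 91.7 and 107 FPKM with nutlin and 76.9 and 78.8 FPKM without it, and after CTR siRNA at 78.8 and 75.2 FPKM with nutlin and 107 and 103 FPKM without it. PGK1 was lower with nutlin in CTR siRNA cells and higher with it after p53 siRNA, with no overlap in either. It fell in CTR siRNA cells (-0.45 ± 0.15, adjusted p = 0.0472), and the nutlin difference after p53 siRNA minus that after CTR siRNA was 0.79 ± 0.21, adjusted p = 0.0386. Leaving out any of the 8 libraries without nutlin or either CTR siRNA+nutlin library ended both calls (adjusted p 0.063 to 0.183 for the first), and leaving out p53 siRNA+nutlin replicate 2 the second (adjusted p 0.0607 to 0.121 over these omissions). Scaling ended both (-0.20 and 0.57), as did leaving out the filter (adjusted p = 0.0686 and 0.0604).

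PGAM1 stood at 419 and 333 FPKM with nutlin and 472 and 470.2 FPKM without it after p53+iASPP siRNA, and at 298 and 267 FPKM with nutlin and 369 and 378 FPKM without it after iASPP siRNA. After p53 siRNA PGAM1 was at 356 and 288 FPKM with nutlin and 408 and 412 FPKM without it, and after CTR siRNA at 251 and 247 FPKM with nutlin and 424 and 429 FPKM without it. PGAM1, phosphoglycerate mutase, was lower in both nutlin libraries than in both others in every background. The fall passed in CTR siRNA cells (-0.77 ± 0.12, adjusted p = 0.000825), and with nutlin present PGAM1 was higher after p53+iASPP siRNA than after CTR siRNA (0.58 ± 0.12, adjusted p = 0.0051), a call lost with scaling (0.38, adjusted p = 0.107). PGAM1 has 13 named pseudogenes, and the share of reads from them is unknown.

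ENO1 and ENO2 are enolases, the first at high and the second at low level. ENO1 stood at 2124 and 1881 FPKM with nutlin and 2326 and 2317 FPKM without it after p53+iASPP siRNA, and at 1585 and 1515 FPKM with nutlin and 1848 and 1872 FPKM without it after iASPP siRNA. After p53 siRNA ENO1 was at 1966 and 1721 FPKM with nutlin and 2511 and 2483 FPKM without it, and after CTR siRNA at 1539.9 and 1513 FPKM with nutlin and 2029 and 2029 FPKM without it. Each background had ENO1 lower in both nutlin libraries. ENO1 fell in CTR siRNA cells (-0.41 ± 0.076, adjusted p = 0.00245) by about as much as after p53 siRNA, given above, and the difference between the 2 was -0.03 ± 0.11 with an interval of -0.27 to 0.21. With nutlin present it was higher after p53+iASPP siRNA (0.39) and p53 siRNA (0.27) than after CTR siRNA. With scaling none of the 4 ENO1 calls was kept (-0.16 in CTR siRNA cells, adjusted p = 0.334), and the call between p53 siRNA+nutlin and CTR siRNA+nutlin was also lost without either CTR siRNA+nutlin library or p53 siRNA+nutlin replicate 1 (adjusted p 0.107 to 0.16). Without a filter that call (adjusted p = 0.053) and the fall after p53 siRNA (adjusted p = 0.0786) were lost.

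ENO2 stood at 12.96 and 17.5 FPKM with nutlin and 16.9 and 17.04 FPKM without it after p53+iASPP siRNA, and at 5.54 and 8.60 FPKM with nutlin and 8.94 and 10.5 FPKM without it after iASPP siRNA. After p53 siRNA ENO2 was at 18.9 and 21.6 FPKM with nutlin and 17.5 and 20.3 FPKM without it, and after CTR siRNA at 16.3 and 14.9 FPKM with nutlin and 20.2 and 22.4 FPKM without it. ENO2 was thus lowest in all 4 libraries that had iASPP siRNA and no p53 siRNA. It was lower after iASPP siRNA than after CTR siRNA without nutlin (-1.06 ± 0.19, adjusted p = 0.0125) and with nutlin (-1.07 ± 0.19, adjusted p = 0.0401). The first call was lost without any of the 4 libraries compared (adjusted p 0.0506 to 0.117) and the second without any of the 8 libraries without nutlin or either CTR siRNA+nutlin library (adjusted p 0.0646 to 0.343) or without a filter (adjusted p = 0.0535). GAPDH and PKM, the pyruvate kinase, passed in no comparison and ranged over 3989.9 to 6108 and 999 to 1263 FPKM, and PKM varied least of all 34 members from its lowest to its highest library. Of the 13 tested members called in no comparison, 9 passed in at least 1 without the 3 diverging libraries, among them GAPDH in 8 and PKM in 5 of 12.

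The lactate transporters SLC16A1 (MCT1) and SLC16A3 (MCT4) passed in no comparison over all 16 libraries. Both are among the members, counted above, that passed in at least 1 comparison without the 3 diverging libraries. SLC16A1 ranged over 18.9 to 27.9 FPKM and SLC16A3 over 92.8 to 159 FPKM. With nutlin in CTR siRNA cells SLC16A1 differed by -0.30 ± 0.15 (interval -0.61 to 0.025) and SLC16A3 by -0.18 ± 0.13 (interval -0.45 to 0.10). Both intervals include 0. SLC16A1 stood at 19.9 and 19.5 FPKM in CTR siRNA+nutlin and 24.4 and 24.4 FPKM in CTR siRNA, without overlap. Without the 3 diverging libraries, which leaves 1 iASPP siRNA+nutlin library, the nutlin difference of SLC16A1 was -0.30 in CTR siRNA cells and -0.46 after iASPP siRNA. That of SLC16A3 was then -0.18 and -0.19. With median-of-ratios scaling over all 16 libraries SLC16A1 was at -0.059 in CTR siRNA cells (limma adjusted p = 0.752) and -0.19 after iASPP siRNA (adjusted p = 0.371).

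Pyruvate dehydrogenase, which carries pyruvate into the mitochondrial acetyl-CoA pool, is represented by its subunit genes PDHA1 and PDHB and by the inhibitory kinases PDK1, PDK2, PDK3 and PDK4. PDHA1 stood at 39.7 and 35.6 FPKM with nutlin and 41.7 and 37.1 FPKM without it after p53+iASPP siRNA, and at 20.4 and 29.5 FPKM with nutlin and 29.4 and 39.4 FPKM without it after iASPP siRNA. After p53 siRNA PDHA1 was at 32.00 and 31.1 FPKM with nutlin and 37.2 and 30.3 FPKM without it, and after CTR siRNA at 15.96 and 26.3 FPKM with nutlin and 33.4 and 31.6 FPKM without it. The 2 CTR siRNA+nutlin libraries of PDHA1 differed widely from each other. With nutlin present PDHA1 was higher after p53+iASPP siRNA than after CTR siRNA (0.84 ± 0.23, adjusted p = 0.0226). That call was lost without CTR siRNA+nutlin replicate 1 or either p53+iASPP siRNA+nutlin library (adjusted p 0.0552 to 0.208) and with scaling (0.65, adjusted p = 0.0588). PDHB, PDK2 and PDK3 passed in no comparison over all 16 libraries, with ranges of 29.3 to 57.6, 8.15 to 17.2 and 0.868 to 3.29 FPKM. With nutlin in CTR siRNA cells PDHA1, PDHB, PDK2 and PDK3 differed by -0.64, -0.39, -0.62 and -0.61, and none passed. With median-of-ratios scaling these were -0.40, -0.14, -0.40 and -0.45. PDK1 and PDK4 had means of 0.685 and 0.494 FPKM and were not tested. Their means were 0.366 and 0.341 FPKM in CTR siRNA+nutlin and 1.13 and 0.495 FPKM in CTR siRNA.

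TKT and TALDO1 are the transferases of the non-oxidative pentose phosphate branch, and they differed in direction. TKT stood at 230.3 and 231 FPKM with nutlin and 228 and 243 FPKM without it after p53+iASPP siRNA, and at 410.4 and 285 FPKM with nutlin and 247 and 241 FPKM without it after iASPP siRNA. After p53 siRNA TKT was at 208 and 214 FPKM with nutlin and 239 and 232 FPKM without it, and after CTR siRNA at 347 and 349 FPKM with nutlin and 196 and 210.1 FPKM without it. The 4 nutlin libraries without p53 siRNA were the highest for TKT. TKT rose with nutlin in CTR siRNA cells (0.78 ± 0.13, adjusted p = 0.00159), and with nutlin present it was lower after p53+iASPP siRNA (-0.59 ± 0.13, adjusted p = 0.00841) and p53 siRNA (-0.72 ± 0.13, adjusted p = 0.00313) than after CTR siRNA. The nutlin difference of TKT after p53 siRNA minus that after CTR siRNA was -0.94 ± 0.19, adjusted p = 0.0125, a call lost without CTR siRNA replicate 1 or p53 siRNA replicate 1 (adjusted p 0.0521 to 0.0552). The lower TKT after p53+iASPP siRNA lost its call without CTR siRNA+nutlin replicate 1 (adjusted p = 0.0508).

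TALDO1 stood at 189 and 185 FPKM with nutlin and 185 and 189.7 FPKM without it after p53+iASPP siRNA, and at 120.0 and 137 FPKM with nutlin and 143 and 149 FPKM without it after iASPP siRNA. After p53 siRNA TALDO1 was at 172 and 166 FPKM with nutlin and 172 and 169 FPKM without it, and after CTR siRNA at 131 and 129 FPKM with nutlin and 184 and 171 FPKM without it. TALDO1 was lowest in the same 4 libraries in which TKT was highest. It fell with nutlin in CTR siRNA cells (-0.44 ± 0.088, adjusted p = 0.00371), and with nutlin present was higher after p53+iASPP siRNA (0.52 ± 0.088, adjusted p = 0.00154) and p53 siRNA (0.38 ± 0.088, adjusted p = 0.0108). The fall in CTR siRNA cells was lost with scaling (-0.20, adjusted p = 0.126), as was the p53 siRNA call (0.15), which was also lost without either CTR siRNA+nutlin library or p53 siRNA+nutlin replicate 1 (adjusted p 0.0566 to 0.0682). The mean ratio of TKT to TALDO1 was 2.75 in iASPP siRNA+nutlin against 1.67 in iASPP siRNA, and 2.68 in CTR siRNA+nutlin against 1.15 in CTR siRNA. After siRNA that included p53 this ratio was 1.23 to 1.38 in all 4 groups.

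PGD, 6-phosphogluconate dehydrogenase, yields NADPH in the oxidative branch. PGD stood at 182 and 200.3 FPKM with nutlin and 206 and 194 FPKM without it after p53+iASPP siRNA, and at 217 and 221 FPKM with nutlin and 199 and 197 FPKM without it after iASPP siRNA. After p53 siRNA PGD was at 197 and 207 FPKM with nutlin and 225 and 218 FPKM without it, and after CTR siRNA at 258 and 236 FPKM with nutlin and 222 and 229 FPKM without it. The 2 CTR siRNA+nutlin libraries had the highest PGD values. With nutlin present PGD was lower after p53+iASPP siRNA (-0.37 ± 0.085, adjusted p = 0.00914) and after p53 siRNA (-0.29 ± 0.085, adjusted p = 0.0312) than after CTR siRNA. The first call was lost without CTR siRNA+nutlin replicate 1 or p53+iASPP siRNA+nutlin replicate 1 (adjusted p 0.0611 to 0.099), and the second without either CTR siRNA+nutlin library, either iASPP siRNA library or p53 siRNA+nutlin replicate 1 (adjusted p 0.05 to 0.221). RPIA, ribose-5-phosphate isomerase, ranged over 18.98 to 33.6 FPKM and passed in no comparison over all 16 libraries.

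**Figure D3:**
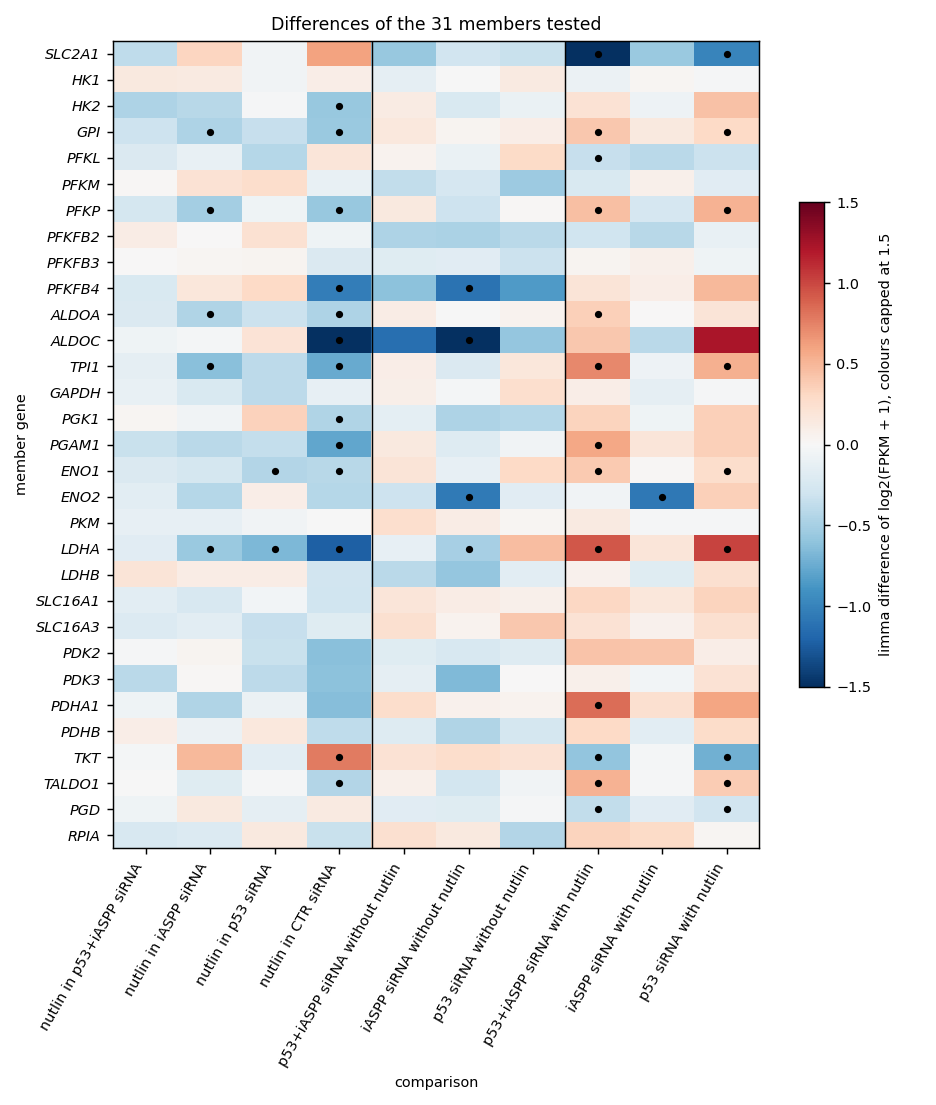
Log2 difference (colour, capped at 1.5 in either direction) of the 31 tested members in 10 comparisons, with nutlin against no nutlin in 4 siRNA backgrounds, and siRNA against CTR siRNA without and with nutlin. Marks show an adjusted p under 0.05 in limma, and most lie in the nutlin comparison of CTR siRNA cells and in the 2 comparisons of siRNA that included p53 with nutlin present.

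Set against all genes, the members' counts with nutlin were uneven over the siRNA backgrounds. After iASPP siRNA 5 members fell with nutlin (TPI1, LDHA, PFKP, GPI and ALDOA) and none passed upwards, or 16.1% of 31, against 5.21% of all genes called and 3.9% down. Their median was -0.12 and that of all genes -0.05. The count was 0 without iASPP siRNA replicate 1 or replicate 2, 3 without iASPP siRNA+nutlin replicate 1 and 9 without iASPP siRNA+nutlin replicate 2. Without all 3 diverging libraries, which leaves 1 iASPP siRNA+nutlin library, 16 members fell and 2 rose, SLC2A1 (0.27, adjusted p = 0.0267) and TKT (0.75, adjusted p = 0.000177), against 19.9% of all genes down and 7.95% up in that fit. After p53+iASPP siRNA 0 members and 0% of all genes passed in limma, while 6 members were lower at an unadjusted p under 0.05 and none higher, and 753 of 10662 genes passed at that level.

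**Figure D4:**
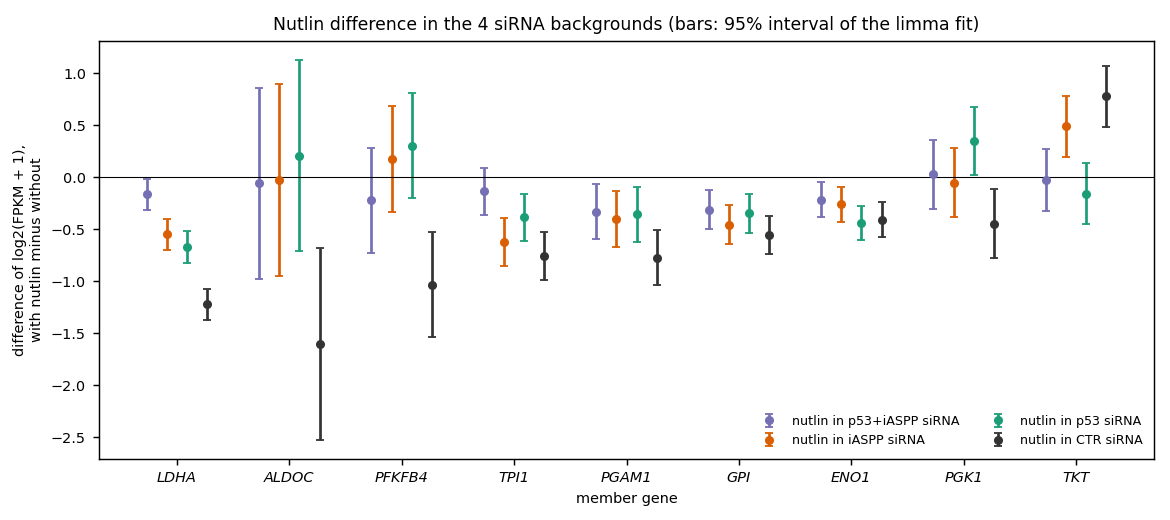
Log2 difference with nutlin (points, with 95% intervals from the limma fit) of 9 members in the 4 siRNA backgrounds. LDHA lies at -0.17 after p53+iASPP siRNA, -0.55 after iASPP siRNA, -0.67 after p53 siRNA and -1.22 after CTR siRNA.

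Without nutlin, the members called after depletion were 4 or 0 over all 16 libraries, and more when libraries outside these comparisons were left out. After iASPP siRNA 4 members were lower than after CTR siRNA (ALDOC, PFKFB4, ENO2 and LDHA) and none was higher, or 12.9% of 31, against 7.86% of all genes called and 5.11% down. The members' median was -0.22, against -0.09 for all genes. That count was 0 without CTR siRNA replicate 1 or iASPP siRNA replicate 1, 1 without replicate 2 of either, and 9 without either iASPP siRNA+nutlin library. After p53 siRNA 0 members passed in limma, against 0.0375% of all genes, and 5 members were higher and 4 lower before adjustment (p under 0.05). Of all 10662 genes, 1379 passed before adjustment there. After p53+iASPP siRNA 0 members passed, against 0.103% of all genes (0.0375% up and 0.0657% down), and before adjustment 2 were higher and 4 lower at that level, where 1676 of 10662 genes passed. Without the 3 diverging nutlin libraries, which are in none of these comparisons and enter only through the shared estimate of spread, the counts were 11 after p53+iASPP siRNA (6 higher and 5 lower), 17 after iASPP siRNA (2 higher and 15 lower) and 12 after p53 siRNA (6 higher and 6 lower). The shares of all genes called in that fit were 12.5, 27.1 and 7.95% for the same siRNAs. The p53 siRNA count was 1, a member that was higher, without any library of p53+iASPP siRNA+nutlin, iASPP siRNA+nutlin or p53 siRNA+nutlin.

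With nutlin present, most member calls came where the siRNA included p53. The CTR siRNA+nutlin libraries enter these comparisons and the nutlin comparison of CTR siRNA cells, so their counts are not independent. After p53+iASPP siRNA 9 members were higher than after CTR siRNA (LDHA, PDHA1, TPI1, PGAM1, TALDO1, PFKP, GPI, ENO1 and ALDOA) and 4 lower (SLC2A1, TKT, PGD and PFKL), or 41.9% of 31, against 24.3% of all genes called, 17.9% up and 6.39% down. The count was 7 without CTR siRNA+nutlin replicate 1. After p53 siRNA 6 members were higher (LDHA, TPI1, PFKP, TALDO1, GPI and ENO1) and 3 lower (SLC2A1, TKT and PGD), or 29% of 31, against 22.5% of all genes, 17.2% up and 5.29% down. That share lies near the background, and the median of all genes was 0.19 there and 0.16 after p53+iASPP siRNA. The count after p53 siRNA was 3 without CTR siRNA+nutlin replicate 1 or p53 siRNA+nutlin replicate 1, 5 without CTR siRNA+nutlin replicate 2, and 15 without either iASPP siRNA+nutlin library. With median-of-ratios scaling these medians were -0.0057 and -0.0091, 3 members were higher and 4 lower after p53+iASPP siRNA (22.6% against 22.1% of all genes), and 1 higher and 4 lower after p53 siRNA (16.1% against 19.6%), with LDHA higher in both (0.73 and 0.78). After iASPP siRNA with nutlin present ENO2 was the 1 member called, or 3.23% of 31, against 0.769% of all genes (0.506% up and 0.263% down), and the count was 0 without any of 10 libraries, namely the 8 without nutlin and both of CTR siRNA+nutlin.

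The nutlin difference itself differed from that in CTR siRNA cells for 5 members after p53 siRNA (PFKFB4, PGK1 and LDHA more positive, TKT and PFKL more negative), or 16.1% of 31, against 9.75% of all genes, 7.65% more positive and 2.1% more negative. After iASPP siRNA it differed for LDHA alone among the 31, or 3.23%, against 1.02% of all genes, 0.825% more positive and 0.197% more negative. With median-of-ratios scaling, which moved the median of all genes in the first of these to 0.0061 where it was 0.20 as deposited, 1 member was more positive and 3 were more negative after p53 siRNA, or 12.9% against 8.75% of all genes. The first count was 1 without CTR siRNA replicate 1 or p53 siRNA replicate 1, 2 without CTR siRNA replicate 2, either CTR siRNA+nutlin library or p53 siRNA+nutlin replicate 2, 3 without p53 siRNA replicate 2 or any iASPP siRNA or p53+iASPP siRNA library, and 10 without either iASPP siRNA+nutlin library. The second was 5 without iASPP siRNA+nutlin replicate 1 and 0 without any CTR siRNA, CTR siRNA+nutlin or iASPP siRNA library.

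Around the members, 70 further genes of glycolysis, sugar and monocarboxylate transport, pyruvate entry, the pentose phosphate pathway and the control of glycolytic transcription were read, of which 43 could be tested. With nutlin in CTR siRNA cells 2 rose and 9 fell, or 25.6% against 26.8% of all genes, close to the background, the largest differences being TIGAR (1.68), PRPS2, a phosphoribosyl pyrophosphate synthetase (-1.5), and PGP, phosphoglycolate phosphatase (-1.05). TIGAR stood at 3.81 and 6.36 FPKM in p53+iASPP siRNA+nutlin, 27.7 and 15.0 FPKM in iASPP siRNA+nutlin, 3.49 and 5.75 FPKM in p53 siRNA+nutlin and 14.4 and 14.4 FPKM in CTR siRNA+nutlin. Without nutlin TIGAR was at 4.59 and 3.26 FPKM after p53+iASPP siRNA, 14.4 and 11.7 FPKM after iASPP siRNA, 2.97 and 2.73 FPKM after p53 siRNA and 3.45 and 4.20 FPKM after CTR siRNA. After iASPP siRNA without nutlin 2 of the 43 rose and 4 fell, or 14% against 7.86% of all genes, with TIGAR at 1.53, GPD2, the mitochondrial glycerol-3-phosphate dehydrogenase, at -1.10, and PCK2, the mitochondrial phosphoenolpyruvate carboxykinase, at -0.97.

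With nutlin present 10 of these genes were higher and 3 lower after p53+iASPP siRNA than after CTR siRNA, or 30.2% against 24.3% of all genes, led by TIGAR (-1.37), PGP (1.31) and PRPS2 (1.20). After p53 siRNA 8 were higher and 1 lower, or 20.9% against 22.5% of all genes, again close to the background, led by TIGAR (-1.48), PCK2 (1.38) and PGP (1.20), and after iASPP siRNA GPD2 was lower (-0.81). PRPS1, another phosphoribosyl pyrophosphate synthetase, was the 1 that fell with nutlin after iASPP siRNA (-0.77), or 2.33% against 5.21% of all genes. None of the 43 passed with nutlin after p53 siRNA or after p53+iASPP siRNA, nor without nutlin after either of these. The nutlin difference was more positive than in CTR siRNA cells for PCK2 (1.53) and PRPS2 (1.17) after p53 siRNA and for PRPS2 (1.08) after iASPP siRNA.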

How the data were processed

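RNA-seq values of HCT116 cells were deposited by the authors as FPKM, 1 column for each of 16 libraries. Per the submitters' processing notes the genome build was hg38 (GRCh38) and edgeR was used. No source used here gives the aligner, the counter or the annotation. Libraries were grouped by their labels.

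From these values log2(FPKM + 1) was fitted with limma 3.58.1 in R 4.3.3, with 8 group means over all 16 libraries and a mean-variance trend, for genes whose mean reached 1 FPKM. P-values of each of 12 comparisons were adjusted by Benjamini-Hochberg over all 10662 genes tested, with a threshold of 0.05. Differences on this scale understate changes of low genes. The fit was tested on simulated data.

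The members and lists were chosen with earlier results of these data known. Per-library values are given for members past the threshold in at least 1 comparison, the other members by ranges and counts, and of other pathway genes the 3 largest past the threshold. Alternatives were another pseudocount, other filters, median-of-ratios scaling, a replicate block, each library left out, the 3 diverging libraries left out, and close pairs averaged. Promoters and gene positions came from RefSeq and GENCODE on GRCh38. Some genes are not reported here.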

Additional observations from a re-analysis of the deposited data

Results flagged for a closer look

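The nutlin difference of LDHA was less negative after p53 siRNA than after CTR siRNA, by 0.55 ± 0.097 on the log2 scale (limma, adjusted p = 0.00685), and less negative after iASPP siRNA than after CTR siRNA, by 0.67 ± 0.097 (adjusted p = 0.0145). LDHA is listed because its response to nutlin differed between siRNA backgrounds in a test of that difference itself, and so are 4 other members in the comparison of p53 siRNA with CTR siRNA. For PFKFB4 the nutlin difference was more positive after p53 siRNA by 1.34 ± 0.33 (adjusted p = 0.0268), and for PGK1 by 0.79 ± 0.21 (adjusted p = 0.0386). For TKT it was -0.94 ± 0.19 (adjusted p = 0.0125) and for PFKL -0.61 ± 0.16 (adjusted p = 0.0334), both more negative after p53 siRNA. Each is the difference after the p53 or iASPP siRNA minus that after CTR siRNA, with n = 2 libraries a group and an adjusted p from the limma fit over all genes.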

How the results depend on the processing

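No called difference reversed under the alternatives tried. Counts below are of members past the threshold in limma. The share of all genes called is not printed, here and above, for fits with 1 library left out. Nor is it printed for another pseudocount, other filters or the replicate block. Those counts show only how far a result depends on 1 library or setting and do not set the members apart from other genes. Among p53 siRNA cells without nutlin the count was 1 with a pseudocount of 0.1 or a filter at a mean of 5 FPKM, against 0. Without a filter the count was 1 with nutlin after p53 siRNA and 0 after iASPP siRNA with nutlin present. With median-of-ratios scaling the count was 1 with nutlin after p53 siRNA, 5 after p53 siRNA and 7 after p53+iASPP siRNA with nutlin present, and 0 for the nutlin difference after iASPP siRNA against CTR siRNA. The shares of all genes called with that scaling were 0.178, 19.6, 22.1 and 0.938% in the same order.

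Without the 3 diverging libraries, which leaves their groups 1 library each that is assumed to vary like the others, the counts with nutlin were 1 after p53+iASPP siRNA, 18 after iASPP siRNA, 6 after p53 siRNA and 22 after CTR siRNA, against 0.509, 27.8, 2.70 and 41.1% of all genes. Against CTR siRNA without nutlin they were 11 (p53+iASPP), 17 (iASPP) and 12 (p53), against 12.5, 27.1 and 7.95% of all genes, and with nutlin 9 (iASPP) and 18 (p53), against 15.5 and 33.8%. Differences of the nutlin difference were 18 (p53) and 6 (iASPP), against 24.5 and 8.57%. With the 5 close pairs averaged, where the spread came only from the 3 groups with diverging libraries, every count was 0. The nutlin difference of LDHA after p53 siRNA was -0.67 there and lost its call.

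Leaving out each library in turn gave, with nutlin, counts of 0 to 0 after p53+iASPP siRNA, 0 to 9 after iASPP siRNA, 0 to 4 after p53 siRNA and 8 to 18 after CTR siRNA. Without nutlin they were 0 to 0 (p53+iASPP), 0 to 9 (iASPP) and 0 to 1 (p53), and with nutlin 7 to 15, 0 to 1 and 3 to 15 for the same siRNAs. Differences of the nutlin difference were 1 to 10 (p53) and 0 to 5 (iASPP), and LDHA after p53 siRNA was -0.71 to -0.63 (adjusted p 0.00174 to 0.139).

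Over 28 pairs of groups the deviations of same-numbered replicates had r of -0.032 to 0.30 (median 0.023) and 3 were above 0.1. The highest was between p53+iASPP siRNA+nutlin and p53 siRNA+nutlin (0.30) and the next between p53+iASPP siRNA+nutlin and iASPP siRNA+nutlin (0.17). Between p53 siRNA+nutlin and iASPP siRNA+nutlin r was 0.088. As not every pair was above 0.1 and the labels state no pairing, the libraries were not taken as paired. A rule over all 28 pairs cannot show a replicate effect limited to some groups. Among the 3 groups with diverging libraries, 14 of 34 members were higher and 5 lower in replicate 2 in all 3. The same count over all genes was not made, so these numbers do not set the members apart from other genes. With the replicate block the counts were 4 against 5 with nutlin after iASPP siRNA, 11 against 9 after p53 siRNA with nutlin present, and 6 against 5 for the nutlin difference after p53 siRNA against CTR siRNA. Of 52 other called member results, 21 lost the call with scaling, 8 without a filter, 1 with the block (PFKP with nutlin after iASPP siRNA) and 52 with close pairs averaged. The cause of these changes was not tested. Absolute depth is unknown, and 2 libraries a group limit the precision.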
